A study of Mus musculus with 6 samples.

Results

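The genes described here are 52 interferon-stimulated genes, interferon-inducible GTPases and interferon receptors, taken by exact gene symbol from a table of 27763 gene rows. All 52 were listed, each in 1 row. They were measured by poly(A) RNA sequencing of spleen natural killer (NK) cells taken from wild-type C57BL/6 mice aged 6 weeks, in 3 libraries labelled cNK and 3 labelled DN NK. Neither short name is spelled out in the labels, and no sorting markers, treatment or infection are given for either group. Both groups share strain, age, tissue and genotype. The series title concerns an immature NK subset of the spleen and its T-bet-dependent maturation. Nothing in the labels tells if different mice gave the 3 libraries of each group. The p-values therefore measure only the spread between these libraries, which may be technical.

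Interferons are secreted proteins that alert cells to infection. Type I interferons signal through the receptor chains encoded by Ifnar1 and Ifnar2, and interferon gamma, which NK cells themselves secrete, through Ifngr1 and Ifngr2. Janus kinases on these receptors activate STAT proteins, which bind the interferon-stimulated response element (ISRE) or the gamma-activated site (GAS) in promoters and switch on genes that block viral replication, sense foreign nucleic acids or attack vacuoles holding intracellular pathogens. The genes were divided by role into 20 antiviral effectors, 10 GTPases of the guanylate-binding (GBP) and immunity-related (IRG) families, 6 nucleic acid sensors, 12 protein modifiers and other stimulated genes, and 4 receptors.

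Promoters of a few of these genes show the sequences that STAT complexes read, and they are printed because their genes differed in opposite directions between the groups. RefSeq promoters on GRCm38.p6, from 250 bases before to 50 after a transcript start, were found for 38 of the 52 genes (44 promoters). The ISRE core was searched as GAAANNGAAA and the GAS as TTCNNNGAA, on both strands, with overlapping matches counted. The ISRE core stood in 22 of 44 promoters of these genes (50%) and in 3.44% of all 32851 promoters, and the GAS in 13 of 44 (29.5%) against 8.3% of all. The stretches below lie before the transcript start and hold no annotated exon; capitals mark matches to either motif. Isg15, Oas1a and Ifit1 were higher in DN NK, whereas Ifit2 and Gbp7 were lower.
Isg15, chr4:156200819-156201068, minus strand: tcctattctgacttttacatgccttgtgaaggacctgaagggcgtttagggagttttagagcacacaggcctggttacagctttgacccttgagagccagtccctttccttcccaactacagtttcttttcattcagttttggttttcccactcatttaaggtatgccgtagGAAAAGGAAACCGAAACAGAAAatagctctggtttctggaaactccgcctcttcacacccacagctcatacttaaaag
Oas1a, chr5:120907526-120907775, minus strand: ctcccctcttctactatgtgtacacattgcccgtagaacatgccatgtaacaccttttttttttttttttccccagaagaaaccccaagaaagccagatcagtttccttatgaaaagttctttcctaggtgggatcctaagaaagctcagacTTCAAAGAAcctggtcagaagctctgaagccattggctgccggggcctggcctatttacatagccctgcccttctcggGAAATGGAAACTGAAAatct
Ifit1, chr19:34640744-34640870, plus strand: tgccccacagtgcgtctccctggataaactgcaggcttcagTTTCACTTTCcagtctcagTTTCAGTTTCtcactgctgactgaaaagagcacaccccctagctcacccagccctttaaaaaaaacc
Ifit2, chr19:34550444-34550693, plus strand: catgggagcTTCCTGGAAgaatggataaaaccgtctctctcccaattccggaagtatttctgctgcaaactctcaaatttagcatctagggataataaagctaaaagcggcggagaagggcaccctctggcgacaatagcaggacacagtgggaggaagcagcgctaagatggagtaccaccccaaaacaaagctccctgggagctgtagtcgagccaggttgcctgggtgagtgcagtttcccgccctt
Gbp7, chr3:142530086-142530335, plus strand: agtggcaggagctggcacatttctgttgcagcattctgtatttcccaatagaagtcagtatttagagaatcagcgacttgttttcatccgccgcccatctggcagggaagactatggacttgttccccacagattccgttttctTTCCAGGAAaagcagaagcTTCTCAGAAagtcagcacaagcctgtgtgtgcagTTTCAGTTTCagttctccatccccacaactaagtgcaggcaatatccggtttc
Isg15 carried 3 overlapping ISRE cores beginning at -78, -72 and -66 from the start. Oas1a held 2 that overlap, at -20 and -14, with a GAS at -98. In Ifit1 the 2 ISRE cores at -104 and -85 are separate and on the opposite strand. Gbp7, a lower gene, had an ISRE core at -53 and a GAS at -106 and at -87, while the window shown for Ifit2 held a GAS at -241 and no ISRE core. Of 14 promoters of genes higher in DN NK 8 held an ISRE core, as did 6 of 15 of lower genes and 6 of 10 of genes that did not pass the test. A match is a description of these letters and not a measured binding site.

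Levels are given in FPKM, fragments scaled by transcript length and library size, so that genes can be set against each other per length. Estimated counts per library ranged from 79798234 to 89526647. Fold changes are DN NK over cNK from edgeR's quasi-likelihood test, with Benjamini-Hochberg adjustment over all 11690 rows that reached 1 FPKM in at least 3 libraries, and genes called higher or lower passed an adjusted p of 0.05. NK markers (Ncr1, Klrb1c, Eomes, Tbx21, Klrk1 and Il2rb) were present in every library and 5 of the 6 were lower in DN NK. Markers of other cells differed between the groups: 8 B cell markers summed to 0.925 to 1.27 FPKM in cNK and 27.7 to 41.5 in DN NK, and 8 T cell markers to 12.1 to 14.4 and 68.0 to 69.4. Most of the T cell sum in DN NK was Cd3d, at 38.5 ± 0.873 FPKM, and Cd3g, at 17.3 ± 0.750. Cd4 was at 3.51 ± 0.290 FPKM there and Cd3e at 0.846 ± 0.122, and Trac rose 1.51-fold to 7.58 ± 0.662. All 6 tested B cell and all 4 tested T cell markers were higher, partly because the filter admits them where DN NK is high; without a filter 8 of 8 B cell and 7 of 8 T cell markers were higher. The part of such cells in the changes below was not tested. Plasmacytoid dendritic cells are known for making type I interferon. Their 7 markers, which include Bst2, summed to 22.9 to 26.5 FPKM in cNK and 32.0 to 33.6 in DN NK. Most of both sums was Bst2, itself an antiviral effector described below, at 15.65 ± 1.09 FPKM in cNK and 24.96 ± 0.979 in DN NK. Cox6a2, the next largest in both groups, went from 7.47 ± 1.40 to 3.18 ± 0.507 FPKM. The higher sum in DN NK therefore rests on Bst2 and is no separate measure of these cells. Of 4 tested, Bst2 and Spib were higher, Cox6a2 lower and Tcf4 not past; without a filter Pacsin1 was also higher. Spib, which B cells also express, went from 0.0534 ± 0.0266 to 2.46 ± 0.525 FPKM, and Siglech reached at most 0.0233 FPKM in any library. Less RNA per cell and fewer cells of a type cannot be told apart in these bulk samples.

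The 52 genes differed between the groups in both directions, and no test of the set as a whole was run. Of the 52 genes 44 passed the filter; 15 were higher in DN NK, 14 lower and 15 did not pass, with a median log2 fold change of 0.08 against -0.02 over all tested rows. These shares, 34.1% higher and 31.8% lower, lay near the background of 30.8% and 30.9% of all tested rows. In 30 of the 44 (68.2%) all DN NK libraries lay on 1 side of all cNK libraries, against 70.3% of all tested rows. Changes of at least 2-fold were seen in 8 higher genes and 2 lower ones, or 18.2% and 4.55%, where the background was 7.9% and 4.69%. Of the 8, Ifit1, Isg20 and Ifitm1 passed the filter through their DN NK values alone. That fixed their direction and lack of overlap, though not the size of the change. Without a filter all 52 could be tested, and 18 were higher, 15 lower and 19 not past, where 15.3% of all rows were higher and 16% lower, or 31.3% in either direction. The antiviral effectors summed to 76.0 to 83.7 FPKM in cNK and 79.3 to 82.6 in DN NK, ranges that overlap.

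**Figure D1:**
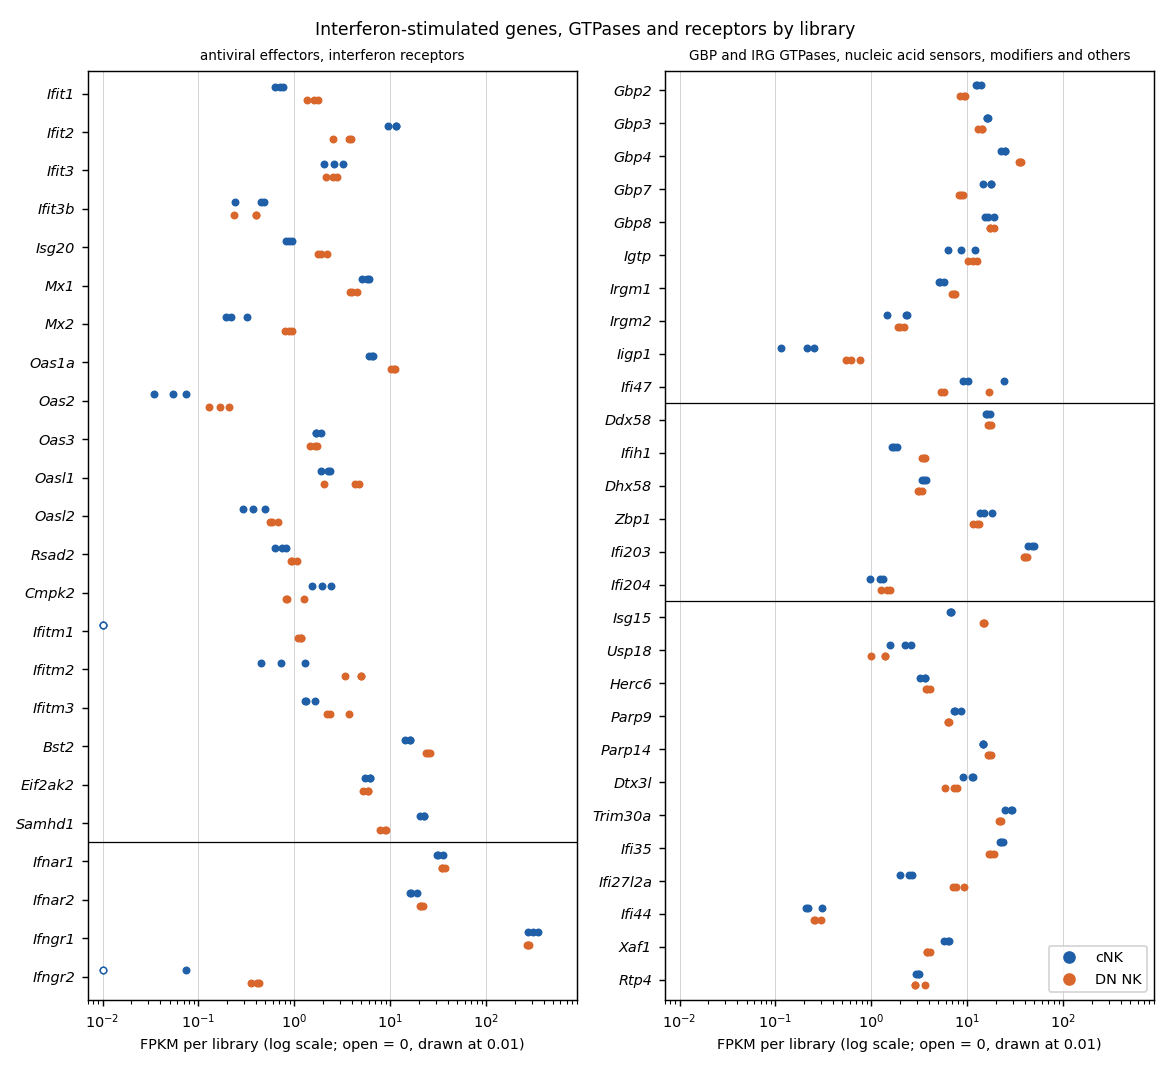
FPKM of each of the 52 genes in each library on a log scale, cNK above and DN NK below the line of each gene, with an open circle for a value of 0. Libraries of the groups separate in both directions, as for Isg15 and Samhd1; Ifitm1 is at 0 in all 3 cNK libraries, and Ifngr2 lies far below the other 3 receptors.

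Both groups carried the type I receptor and Ifngr1, while the second chain of the interferon gamma receptor was close to absent. Ifngr1, the ligand-binding chain, was the most abundant of the 52 genes at 353.6, 277.8 and 310.3 FPKM in cNK replicates 1 to 3 and 280.0, 267.3 and 274.5 in DN NK. The groups overlapped and the test was not passed (log2 fold change -0.14, SE 0.09), though without cNK replicate 2 it was, at -0.22 (adjusted p = 0.0368). Ifngr2, which brings JAK2 to the complex, was at 0.0746 FPKM in cNK replicate 1 and 0 in the other two, against 0.427, 0.404 and 0.352 in DN NK. These values rest on 26 estimated counts in all of cNK and 109 to 134 per DN NK library, where 1 read pair is worth about 3.78. Ifngr2 lay below the filter; fitted without one, the log2 change was 3.91 (SE 1.37) and did not pass at adjusted p = 0.105, while edgeR's default filter gave adjusted p = 0.042. Its row ends earlier than the gene does in GENCODE M21, at 91565169 on chromosome 16, and the bearing of that on its level was not tested. No DN NK library overlapped cNK, yet in every library Ifngr1 stood at least 656-fold above Ifngr2 where Ifngr2 was detected.

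Ifnar2, a chain of the type I receptor, was at 16.5, 19.2 and 16.3 FPKM in cNK and 20.3, 21.1 and 22.1 in DN NK. Every DN NK library exceeded every cNK library, 1.27-fold higher (log2 0.35, SE 0.07, adjusted p = 0.00223). Ifnar1, its partner, was at 36.0, 31.5 and 31.1 in cNK and 37.7, 35.1 and 34.7 in DN NK. Here the groups overlapped and the change of 0.18 (SE 0.07) did not pass at adjusted p = 0.0602; without cNK replicate 1 it was 0.27 and passed at adjusted p = 0.00473, as it did with DESeq2 (adjusted p = 0.0376) and median-ratio factors (adjusted p = 0.0494). Ifnar2, Il10rb, Ifnar1 and Ifngr2 are neighbours on the plus strand of chromosome 16, between 91372783 and 91565169 on GRCm38. A gene model on the same strand, Gm21970, shares 9.46% of the exon bases of Ifnar2, so reads of Ifnar2 may be split. Il10rb, the shared chain of the interleukin-10 and interferon lambda receptors, was 2.52-fold lower in DN NK. So 1 gene of the cluster was lower beside Ifnar2, which was higher. The span of Gm21970 also overlaps that of Il10rb on the same strand, so reads of Il10rb may be split too.

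Downstream of the receptors, kinases and transcription factors differed in both directions. Of 17 tested signalling genes 8 were higher, 7 lower and 2 not past, where 30.8% of all tested rows were higher and 30.9% lower. Stat2, which takes part in the ISRE-binding complex, was at 6.68 ± 0.124 FPKM in cNK (SD, n = 3) and 6.72 ± 0.748 in DN NK (SD, n = 3) and did not pass (log2 0.07, SE 0.08). Irf9, a partner in that complex, rose 1.20-fold (adjusted p = 0.00189) and Irf1, a target of interferon gamma, 1.18-fold. Irf7, an amplifier of type I interferon production, fell by 0.46 on the log2 scale (adjusted p = 0.0111). Larger changes were those of Stat3, 3.08-fold higher at 58.5 ± 4.46 against 19.8 ± 2.26 FPKM, Il10rb, and Pias1, an inhibitor of STAT signalling, 1.85-fold higher. The kinase genes, named after their values were seen, split: Jak1 and Tyk2 fell by 0.69 and 0.52, and Jak2 rose by 0.82.

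**Figure D2:**
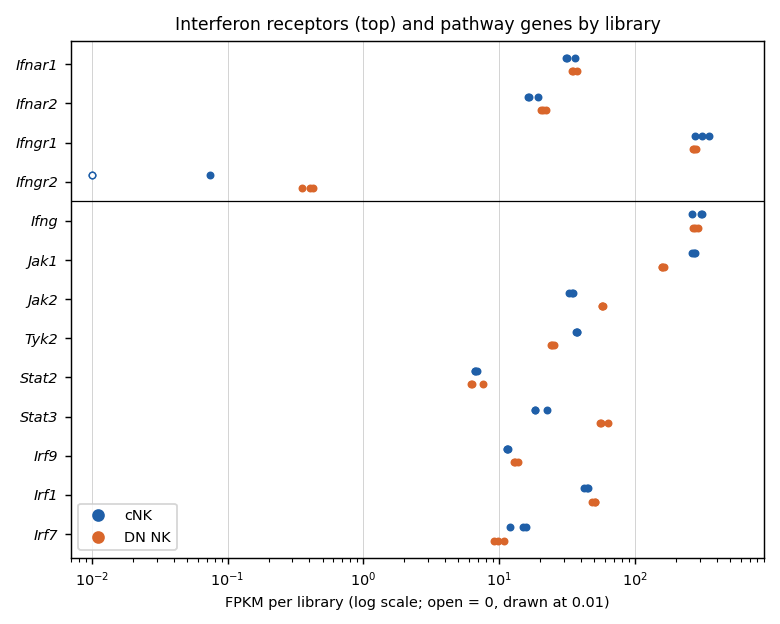
FPKM per library, log scale, of the 4 receptors above the line and of interferon gamma, the kinases, STATs and interferon regulatory factors below it; an open circle marks a value of 0. Ifngr1 and Ifng lie near 300 FPKM in both groups, Ifngr2 below 0.5 FPKM in all 6 libraries, and Jak1 and Jak2 separate in opposite directions.

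The listed interferon ligand genes were nearly silent apart from Ifng, and the ligand genes without a row were not analysed here. Of 21 ligand genes 6 were listed, and 5 of these lay below the filter in both groups, with Ifna1, Ifna4, Ifnab and Ifnk at 0 in all cNK libraries. Ifng was at 294.5 ± 26.6 FPKM in cNK and 278.6 ± 11.3 in DN NK and did not pass (log2 -0.02, SE 0.07). Among 12 tested genes that lead to interferon production, 7 were higher and 1 lower, beside 30.8% and 30.9% of all tested rows. Irf5, a factor that induces interferon genes, rose 2.73-fold and the kinase gene Tbk1 1.63-fold, while Mavs, the mitochondrial adaptor of the RNA sensors, fell by 0.76.

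Antiviral effectors held the largest changes among the tested genes in both directions, with 7 of 15 higher (46.7%), 4 lower (26.7%) and 4 not past, beside 30.8% higher and 30.9% lower of all tested rows. Of the 7, Ifit1, Isg20 and Ifitm1 passed the filter only through DN NK, which fixed their direction but not their call. Without a filter 10 of 20 were higher, 4 lower and 6 not past. Ifitm1, Ifitm2 and Ifitm3 encode small membrane proteins that hinder virus entry and lie between 140954837 and 141010770 on chromosome 7. Ifitm1 was at 0 in all 3 cNK libraries and at 1.18, 1.18 and 1.10 FPKM in DN NK, about 94 read pairs in all. With cNK set to a floor of 3 read pairs over its 3 libraries, Ifitm1 was about 33.8-fold higher. That value leaves out the counting error of the 94 read pairs. Ifitm2 was at 1.29, 0.721 and 0.455 FPKM in cNK and 3.42, 4.93 and 4.92 in DN NK, 5.56-fold higher (adjusted p = 0.000605). Ifitm3 was at 1.28, 1.32 and 1.65 against 3.72, 2.19 and 2.36 FPKM, 2.02-fold higher (adjusted p = 0.00883). An unnamed gene model, Gm45717, shares 40.9% of the exon bases of Ifitm2 on the same strand, so its reads may be split. All 3 Ifitm genes were low in cNK and separated without overlap. The neutrophil markers S100a8, S100a9, Camp and Ltf, listed at 0 in every cNK library, summed to between 0.135 and 0.606 FPKM in DN NK, and their part was not tested.

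The IFIT genes bind viral RNA and inhibit its translation. On chromosome 19 Ifit2, Ifit3, Ifit3b and Ifit1 lie on the plus strand between 34550694 and 34650009, and they differed from each other. Ifit2 was at 9.45, 11.6 and 11.4 FPKM in cNK and 2.56, 3.70 and 3.94 in DN NK, a fall of 1.61 on the log2 scale (SE 0.17, adjusted p = 0.00018). Ifit1 went the other way, from 0.629, 0.759 and 0.711 to 1.62, 1.37 and 1.76 FPKM, 2.36-fold higher (adjusted p = 0.00018). Because Ifit1 passed the filter through DN NK alone, its direction and lack of overlap were fixed by that filter. Without a filter Ifit1 was higher by 1.18 on the log2 scale (adjusted p = 0.000122). Ifit2 did not overlap between groups either. The ratio of Ifit2 to Ifit1 FPKM was 15.0 to 16.1 in cNK libraries and 1.58 to 2.70 in DN NK libraries. Ifit3 lay between them at 2.60 ± 0.588 and 2.49 ± 0.304 FPKM and did not pass (log2 0.0009, SE 0.18). Ifit3b, its close copy, was below 0.5 FPKM everywhere; reads of such copies may be split between them, and the pair together gave 2.26 to 3.65 FPKM in cNK and 2.40 to 3.16 in DN NK.

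Samhd1, which limits viral DNA synthesis by degrading nucleotides, had the smallest adjusted p of the 44 tested genes. It was at 20.5, 22.4 and 22.3 FPKM in cNK and 7.82, 8.90 and 9.16 in DN NK, a fall of 1.27 on the log2 scale (SE 0.06, adjusted p = 1.2e-06). Every DN NK library lay well below every cNK library. Cmpk2, a nucleotide kinase gene next to Rsad2, fell by 0.94, from 1.97 ± 0.441 to 0.979 ± 0.250 FPKM. Rsad2, which encodes viperin, was below the filter at 0.733 ± 0.0993 and 0.981 ± 0.0765 FPKM and did not pass without it (adjusted p = 0.0584), though it did with edgeR's default filter (adjusted p = 0.0401). Mx1, a dynamin-like GTPase gene, fell by 0.38, while Mx2 lay below the filter at 0.245 ± 0.0671 and 0.876 ± 0.0741 FPKM and was higher without it (log2 1.82, adjusted p = 4.32e-05).

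The OAS enzymes make a signal that activates RNase L when they meet double-stranded RNA. Oas1a was at 5.98, 6.51 and 6.57 FPKM in cNK and 11.2, 11.1 and 10.3 in DN NK, 1.78-fold higher without overlap (adjusted p = 3.8e-05). Oas3 stood at 1.76 ± 0.138 and 1.61 ± 0.121 FPKM and did not pass, and Oas2 stayed below 0.25 FPKM in every library. Oas2 and Oasl2 lay below the filter, and without it both were higher, by 1.63 (adjusted p = 0.00768) and 0.65 (adjusted p = 0.026) on the log2 scale. Oas2 rested on only 34, 16 and 24 estimated counts in cNK and 73, 88 and 54 in DN NK, at about 3.78 per read pair. Oasl1, at 4.35, 2.02 and 4.75 FPKM in DN NK against 2.36, 1.91 and 2.24 in cNK, turned on DN NK replicate 2. It did not pass with all libraries (log2 0.83, adjusted p = 0.067) and did without that replicate (log2 1.12, adjusted p = 0.000362) or with DESeq2 (adjusted p = 0.00363). Bst2, the gene of tetherin, which holds budding virions at the cell surface, rose 1.66-fold to 25.0 ± 0.979 FPKM, and the exonuclease gene Isg20 2.30-fold to 1.96 ± 0.207. Isg20 passed the filter only through DN NK, and without a filter it was higher by 1.135 on the log2 scale (adjusted p = 0.000215). Eif2ak2, the gene of the kinase PKR, was at 5.97 ± 0.429 and 5.66 ± 0.417 FPKM and did not pass (log2 -0.02, SE 0.07).

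**Figure D3:**
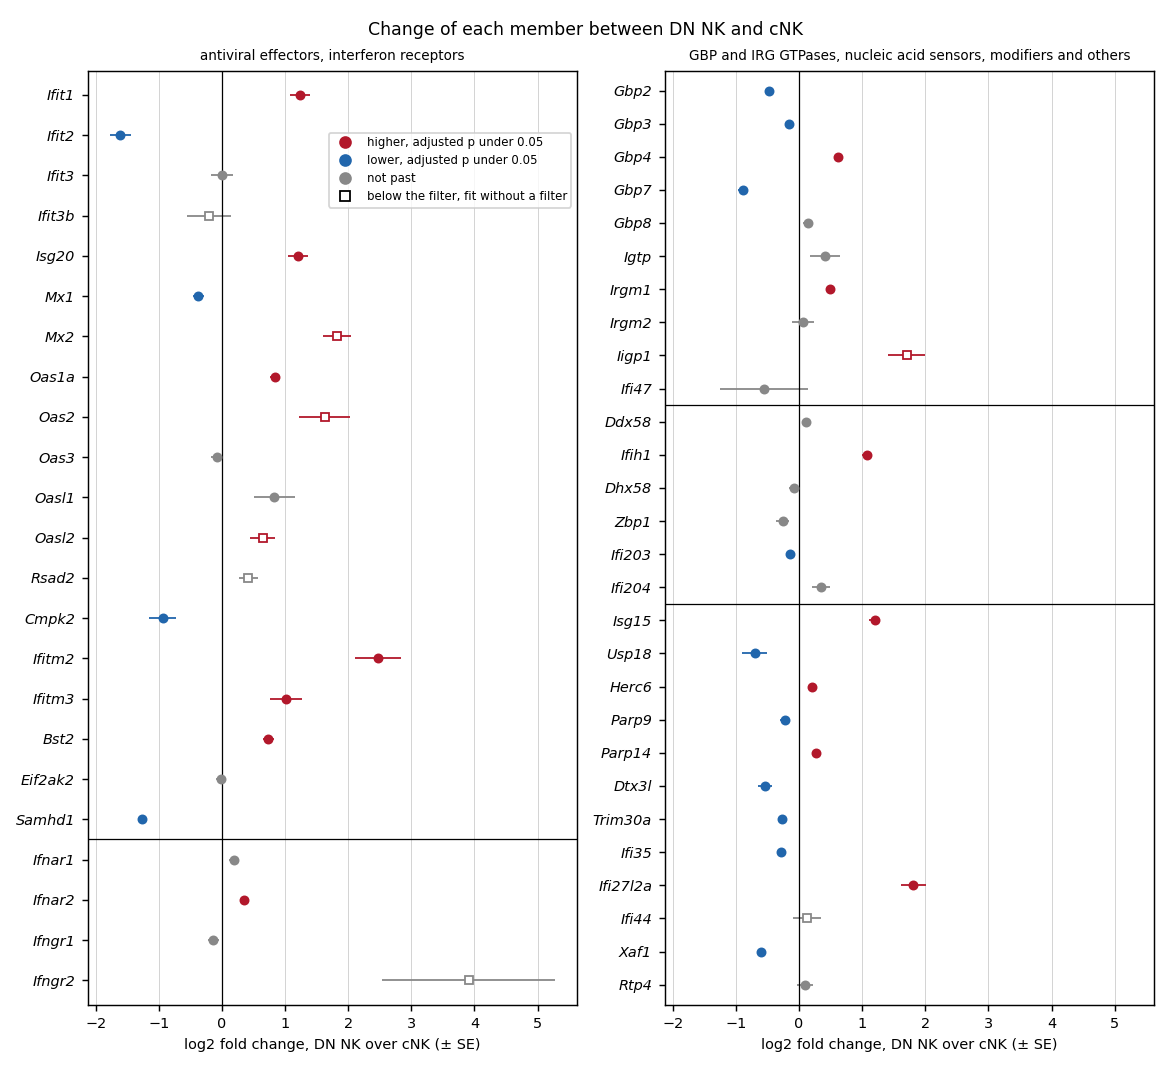
Log2 fold change with its SE for 51 of the 52 genes, red for higher, blue for lower and grey for not past, circles from the filtered fit and open squares for genes below the filter, from the fit without one; Ifitm1 is left out because it was at 0 in cNK. Antiviral effectors spread from -1.61 (Ifit2) to 2.47 (Ifitm2), whereas tested GTPases stay between -0.89 and 0.62.

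GTPases of the GBP and IRG families, best known as targets of interferon gamma, changed in both directions. Of the 9 tested among the 52 genes 2 were higher (22.2%), 3 lower (33.3%) and 4 not past, none by 2-fold, beside 30.8% and 30.9% of all tested rows. Without a filter 3 of 10 were higher and 3 lower. Gbp4 was at 22.7, 24.8 and 24.9 FPKM in cNK and 35.5, 35.2 and 36.2 in DN NK, 1.54-fold higher (adjusted p = 8.06e-06). Gbp7 was at 14.8, 17.7 and 17.7 against 8.17, 8.61 and 9.13 FPKM, a fall of 0.89 on the log2 scale (adjusted p = 1.68e-05). Gbp2 fell by 0.47, from 12.4, 14.1 and 12.8 to 8.34, 9.37 and 9.46 FPKM (adjusted p = 0.000557). In all 3 genes the libraries of the groups were apart, with DN NK above cNK for Gbp4 only.

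The direction followed the locus, a grouping made after the values were seen. On the plus strand of chromosome 3, between 142493978 and 142638008, Gbp5, Gbp7, Gbp3 and Gbp2 were all lower. Gbp3 was the weakest, at -0.16 (SE 0.06, adjusted p = 0.0325). It lost its call without cNK replicate 1, 2 or 3 or DN NK replicate 2, at adjusted p of 0.0538 to 0.107, and had the same sign in all 17 fits. On the minus strand of chromosome 5, between 105014150 and 105346472, Gbp4, Gbp9, Gbp10 and Gbp6 were higher by 0.62, 0.95, 1.82 and 2.17, and Gbp8 did not pass at 0.14 (SE 0.08; 0.23, adjusted p = 0.0177, without cNK replicate 3). Gbp11 lay below the filter there. Summed over the 4 genes of chromosome 3 the level was 47.8, 53.1 and 51.9 FPKM in cNK and 34.1, 34.5 and 36.4 in DN NK. Over the 6 genes of chromosome 5 it was 55.1, 59.5 and 62.3 against 94.6, 93.0 and 98.9 FPKM. The annotated spans of Gbp4, Gbp8 and Gbp9 overlap, and close copies may share reads, so single values there are less certain than the sums.

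**Figure D4:**
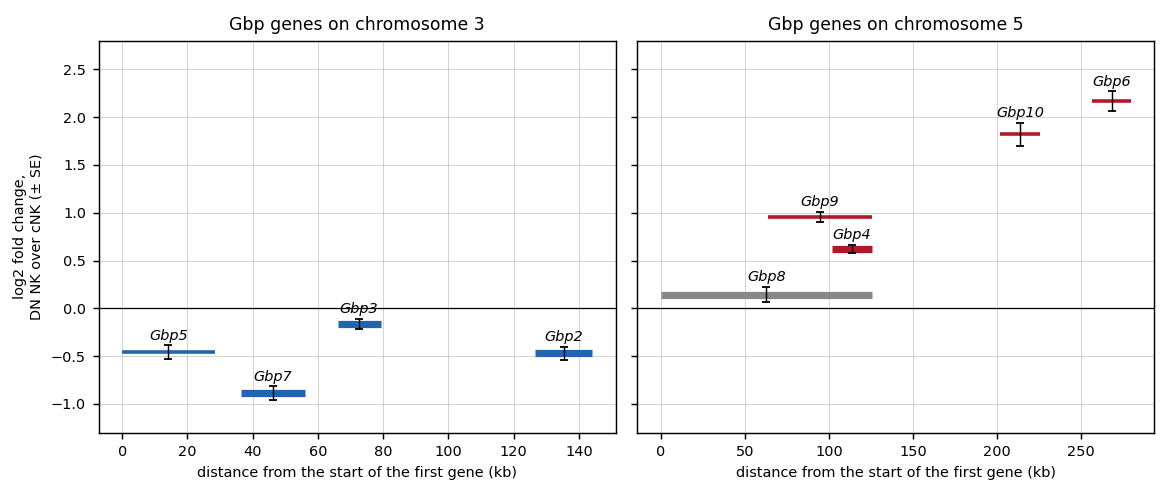
Log2 fold change (± SE) of guanylate-binding genes against distance along their loci in kb; thick lines are genes among the 52, thin lines their neighbours, red higher, blue lower and grey not past. All 4 genes of chromosome 3 lie below 0 and all 5 drawn genes of chromosome 5 above it, from 0.14 to 2.17.

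IRG proteins disrupt the vacuoles of intracellular pathogens. Irgm1, a regulator of the family, was at 5.27, 5.14 and 5.75 FPKM in cNK and 7.49, 7.00 and 7.37 in DN NK, 1.41-fold higher without overlap (adjusted p = 0.000213). Igtp varied from 6.33 to 12.2 FPKM in cNK and 10.1 to 12.8 in DN NK and did not pass (adjusted p = 0.179), but did without cNK replicate 2 (log2 0.68, adjusted p = 0.00539) and with DESeq2 (adjusted p = 0.0482). Its span on chromosome 11 overlaps that of Irgm2, which was at 2.03 ± 0.511 and 2.04 ± 0.132 FPKM. Iigp1 lay below the filter at 0.195 ± 0.0721 and 0.638 ± 0.107 FPKM and was higher without it (log2 1.70, adjusted p = 0.000702). Ifi47 had 24.1, 10.1 and 9.01 FPKM in cNK and 5.38, 17.1 and 5.79 in DN NK, so 1 library of each group stood apart and no difference could be read (log2 -0.56, SE 0.70). Outside the 52 genes, 6 of 8 tested GTPase genes of the GBP, IRG and related families were higher and 2 lower, beside 30.8% and 30.9% of all tested rows. Gbp6 was 4.49-fold, Gbp10 3.53-fold and Tgtp1 3.27-fold higher. Gvin1, the most abundant gene of that list and named after its values were seen, fell by 1.23 on the log2 scale, from 94.7 ± 10.2 to 38.6 ± 2.35 FPKM (adjusted p = 3.97e-06).

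Among nucleic acid sensors the RIG-I-like helicases parted. Ifih1, which encodes the long double-stranded RNA sensor MDA5, was at 1.63, 1.73 and 1.85 FPKM in cNK and 3.56, 3.61 and 3.37 in DN NK, 2.11-fold higher (SE 0.07 on the log2 scale, adjusted p = 7.01e-06). Its groups were far apart relative to their spread. Ddx58, the RIG-I gene, was at 16.4 ± 0.725 and 17.1 ± 0.637 FPKM and did not pass (log2 0.11, SE 0.05, adjusted p = 0.0608); without cNK replicate 2 it passed at 0.14 (adjusted p = 0.0372), and with median-ratio factors at adjusted p = 0.0436. Dhx58, the LGP2 gene, was at 3.52 ± 0.169 and 3.20 ± 0.148 FPKM and did not pass either. Zbp1, a sensor of Z-form nucleic acids that can trigger cell death, was at 13.5, 18.1 and 15.0 against 13.2, 11.5 and 12.6 FPKM. The groups did not overlap, but the lowest cNK library lay close to the highest DN NK one. The change of -0.26 did not pass (adjusted p = 0.0635). It passed without cNK replicate 1, at -0.34 (adjusted p = 0.0183), and with limma, DESeq2, upper quartile factors, no filter or the default filter, at adjusted p of 0.0211 to 0.0497.

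Ifi203 and Ifi204 belong to the PYHIN family, several members of which bind DNA. Ifi203, abundant at 46.8 ± 3.16 and 40.8 ± 1.28 FPKM, fell by 0.14 (adjusted p = 0.0456). That call was lost without cNK replicate 2 or 3 and without any one DN NK replicate, at adjusted p of 0.0672 to 0.152, and with DESeq2 (adjusted p = 0.0719) or median-ratio factors (adjusted p = 0.0623). Ifi204 was at 1.18 ± 0.184 and 1.44 ± 0.150 FPKM and did not pass (log2 0.35, adjusted p = 0.0697), but did without cNK replicate 2 (adjusted p = 0.0452). Of the 6 sensors 1 was therefore higher, 1 lower and 4 not past. The split was 2 and 0 with median-ratio scaling and 1 and 2 with upper quartile scaling, and without cNK replicate 2 it was 3 and 0. The share of sensors past the test, 33.3%, can be set beside 61.7% of all tested rows, 73.3% of antiviral effectors and 55.6% of GTPases; these shares were not tested against each other.

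Protein modifiers and other stimulated genes included 4 higher and 6 lower genes of 11 tested (90.9% past, beside 61.7% of all tested rows), and 2 of these changes reached 2-fold. Isg15, a ubiquitin-like protein gene that is conjugated to other proteins during infection, was at 6.68, 6.76 and 6.80 FPKM in cNK and 14.8, 15.1 and 14.6 in DN NK, 2.29-fold higher (SE 0.09 on the log2 scale, adjusted p = 1.1e-05). Replicates differed by less than 0.5 FPKM within each group. Usp18, whose protein removes ISG15 from its targets and restrains the type I receptor, went the other way, from 1.56, 2.57 and 2.26 to 0.993, 1.38 and 1.38 FPKM. It fell by 0.70 (adjusted p = 0.0156), a call lost without cNK replicate 2 (-0.55, adjusted p = 0.0526) or DN NK replicate 1 (-0.58, adjusted p = 0.053). Herc6, the mouse ISG15 ligase gene, was 1.15-fold higher (adjusted p = 0.0222). Its call was lost without cNK replicate 1 or DN NK replicate 1 or 3, at adjusted p of 0.059 to 0.0814, and with limma, upper quartile factors, no filter or the default filter, at adjusted p of 0.0915 to 0.172.

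Ifi27l2a, a small hydrophobic protein gene, had the largest rise among the modifiers and others, from 2.67, 2.47 and 1.98 to 9.28, 7.18 and 7.57 FPKM. It was 3.51-fold higher with no overlap (adjusted p = 7.48e-05). Xaf1, whose product promotes apoptosis, fell by 0.60 (adjusted p = 9.52e-05), from 5.73, 6.38 and 6.49 to 3.85, 3.81 and 4.07 FPKM. Trim30a and Ifi35 fell by 0.27 and 0.29 from 27.7 ± 2.53 and 22.8 ± 0.952 FPKM. Parp14, Dtx3l and Parp9 are neighbours on chromosome 16 and encode 2 proteins of the PARP family and, for Dtx3l, a ubiquitin ligase that pairs with PARP9. Parp14 rose 1.21-fold (adjusted p = 0.00057), whereas Dtx3l fell by 0.54 (adjusted p = 0.00493) and Parp9 by 0.22 (adjusted p = 0.0307). The Parp9 call was lost without cNK replicate 2 or DN NK replicate 2 or 3, at adjusted p of 0.0667 to 0.0915. Dtx3l and Parp9 overlap on opposite strands in 8% and 9.4% of their exon bases, and the kit does not mark strand, so reads there cannot be assigned to 1 of them. The same holds for 16.8% of the exon bases of Ifi35, which a gene model on the other strand covers. Rtp4 did not pass, and Ifi44 stayed below 0.5 FPKM in all libraries.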

How the data were processed

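Per the labels' protocols, poly(A) RNA was made into TruSeq v2 libraries and sequenced as paired reads; this kit does not mark strand. HISAT, StringTie and edgeR, and the builds GRCm38 and mm10, stand without versions or roles in the submitters' processing notes. Per the file headers, the deposited table holds an FPKM value and a count for each gene and library. The deposited counts are whole numbers but 89.2 to 91.3% of low values in rows of 1 transcript equal FPKM times length times a constant, rounded up, so they were taken as estimated counts made by the authors, with about 3.78 per read pair.

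edgeR 4.0.16 in R 4.3.3 was fitted to these counts with TMM factors, robust dispersion and group as the only term, 2-sided, on 11690 rows reaching 1 FPKM in 3 or more of the 6 libraries. The SE is the log2 fold change divided by the square root of F. FPKM means and SDs are of deposited values. The floor for Ifitm1 covers counting error in cNK only. Alternatives used limma 3.58.1 on log2(FPKM + 1), computed here from the deposited FPKM, DESeq2 1.42.0, other scaling, filters and left-out libraries. The fit was tested on simulated data. Start and end matched GENCODE M21 for 50 of the 52 genes. The members and lists were chosen with earlier results of these data known; all 52 could be named, with full statistics for the 4 largest changes past the threshold without overlap per role, genes at 0 in 1 group and the receptors, and from other lists the 3 largest changes and fixed pathway genes. Others given with values were chosen after their values were seen. Ifnb1 was among the fixed genes and was not analysed here. A further signalling gene is counted in its list but not reported here.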

Additional observations from a re-analysis of the deposited data

How the results depend on the processing

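Of the 52 genes, 32 kept direction and call in every one of the 16 other fits that tested them. Among these, Ifit3b, Mx2, Oas2, Oasl2, Iigp1 and Ifi44 lay below the filter. Besides the fit without a filter, only the fit with edgeR's default filter tested them, so their stability was hardly probed. With a mean of at least 5 FPKM fewer genes were tested, and 8 members were higher, with 2 antiviral effectors higher, 2 lower and 0 sensors higher. With edgeR's default filter 11 antiviral effectors were higher. Sensors, few and mostly near the threshold, moved most. By scaling or test, 2 were higher with median-ratio factors, where 0 were lower, and 2 were lower with limma at either pseudocount, with upper quartile factors, without a filter and with the default filter. Leaving out 1 library gave 1 to 3 higher and 0 to 2 lower sensors, and without Ifi203 and Ifi204 0 were lower. Whether the replicate numbers pair the libraries could not be settled with 3 libraries per group. Deviations of same-numbered libraries correlated at 0.046, 0.0362 and 0.162, and those of differently numbered ones at -0.0984 to 0.0565. Not every library correlated best with its own number. With the replicate block 18 members were higher and 14 lower, and 2 sensors were higher; the calls added were Oasl1 (adjusted p = 0.0286), Ifi204 (adjusted p = 0.0431) and Ifnar1 (adjusted p = 0.00783).

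Changes of sign were seen only in genes that did not pass. Ifit3 was at -0.0346 and -0.0424 with limma at pseudocounts of 1 and 0.1, -0.0841 with upper quartile factors, -0.0629 without a filter, -0.0554 with the default filter, -0.0058 on counts divided by the worth of a read pair, and -0.14 to 0.17 with 1 library left out. Irgm2 was at -0.018 with upper quartile factors and -0.12 to 0.18 with 1 library left out. The same range was -0.0663 to 0.0253 for Eif2ak2, -1.32 to 0.0502 for Ifi47 and -0.0465 to 0.16 for Rtp4. The cause was not tested. Genes of a few read pairs, such as Ifngr2 and Ifitm1 in cNK, are limited by depth.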

Other observations

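Beyond Ifi203 and Ifi204, other genes of the PYHIN family split in the same comparison. Of 9 tested family genes, those included, 4 were higher in DN NK, 4 lower and 1 did not pass, beside 30.8% higher and 30.9% lower of all tested rows. Aim2, the inflammasome sensor of cytosolic DNA, was at 6.44, 7.66 and 7.45 FPKM in cNK and 29.4, 26.9 and 28.3 in DN NK, 4.10-fold higher (adjusted p = 2.67e-07). Ifi211 was 4.13-fold higher, at 7.22 ± 0.425 against 1.82 ± 0.299 FPKM. Ifi213 and Mndal, chosen after their values were seen, rose 1.61-fold and 1.45-fold, while Ifi208, Ifi209 and Ifi214 fell by 0.40, 0.59 and 0.88 on the log2 scale. Close copies in this family may share reads, and the span of Mndal overlaps those of Ifi203 and Ifi211.

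Of 49 other tested interferon-stimulated genes 17 were higher and 18 lower, near the 30.8% and 30.9% of all tested rows. Ifitm10, a relative of the Ifitm genes described above, fell by 1.57 on the log2 scale from 9.92, 11.0 and 9.89 to 2.49, 3.65 and 3.85 FPKM (adjusted p = 0.000158), opposite to Ifitm1, Ifitm2 and Ifitm3.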
